A study of Mus musculus with 10 samples.

Results

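The solute carrier (SLC) transporter genes were examined in ATAC-seq libraries of mouse regulatory T cells (Treg cells) with and without Fntb. A gene was taken when its symbol in the mouse assembly GRCm38.p6 is Slc, a family number, the letter a and a member number, and when it is protein-coding. Slc7a5, Slc3a2, Slc7a11, Slc1a5, Slc2a1 and Slc2a3, 6 nutrient carriers, were left out by the same rule. This gave 331 genes. A region of accessible chromatin belonged to a gene when it overlapped the gene's span, or otherwise when that span was the nearest one within 100 kb. By this measure 278 of the 331 genes held 1280 of the 77076 regions in the deposited table, and 53 genes held none. An assigned gene is a position and not a shown target of the region. ATAC-seq measures how often a transposase cuts open chromatin, so none of the values below is an expression level.

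Solute carriers are membrane proteins that move amino acids, sugars, metals, inorganic ions, vitamins, nucleosides and organic acids across the plasma membrane and the membranes of organelles, either down a gradient or coupled to another ion. T cells that become activated take up more nutrients through several of them, among them carriers of amino acids, lactate and iron. Fntb encodes a subunit of the farnesyltransferase, which joins a farnesyl group, an isoprenoid lipid, to target proteins, Ras and lamins among them.

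The 10 libraries came from Treg cells of spleen and lymph nodes, sorted out of chimeric mice that had received a mixture of bone marrows, so every group shares that setting. There were 2 libraries of FntbKO eTreg cells, 2 of FntbKO cTreg cells, 3 of WT eTreg cells and 3 of WT cTreg cells. FntbKO cells are labelled as knockout for Fntb and WT cells as wild type, and eTreg and cTreg are usually read as effector and central Treg cells. The Cre driver, the deleted part of Fntb, the age of the mice, the surface markers of the sort and whether libraries of a group came from separate mice are not given in the sources used here, so p-values measure only the spread between these libraries.

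The total counts ran between 5058328 and 15328775 per library. A region at Fntb, chr12:76837192-76837915, had 11.6 and 7.48 CPM (counts scaled to the size of the library, by TMM) in FntbKO eTreg, 13.1 and 11.2 in FntbKO cTreg, 29.4, 30.3 and 30.2 in WT eTreg, and 36.9, 29.2 and 33.1 in WT cTreg (log2 fold change −1.71 in eTreg, adjusted p = 4.46e-05, and −1.46 in cTreg, adjusted p = 6.34e-05, edgeR). Every FntbKO library was below every WT library there. All 7 marker genes of Treg and T cells had regions. Of the lists of other cell types, 2 of 4 B cell genes (summed CPM 27.5 to 42.8 over all libraries), all 4 CD8 T or NK cell genes (146.2 to 178.4), all 3 erythroid genes (28.2 to 39.9) and 2 of 4 myeloid genes had regions. The B cell marker Ms4a1 and the myeloid markers Adgre1 and Csf1r had none. The summed CPM at the 14 myeloid marker regions was 44.8 to 54.1 in FntbKO eTreg, 26.8 to 33.3 in FntbKO cTreg, 76.3 to 88.9 in WT eTreg and 43.1 to 65.2 in WT cTreg. It was thus higher in eTreg than in cTreg libraries of each genotype and lower in FntbKO than in WT libraries of each subset, without overlap, and its part in the subset and genotype differences below was not tested.

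Most SLC regions lay away from the gene starts. Of the 1280 regions, 836 (65.3%) overlapped a gene span, against 62.8% of all regions, and 444 lay outside every span. Their median width was 347 bp, against 352 bp for all regions. The median member with any region had 3. Slc39a11, the zinc transporter ZIP11, had 45 regions and Slc9a9, an endosomal sodium-proton exchanger, had 40. Slc16a10, a carrier of aromatic amino acids, had 17, and Slc7a1, the arginine carrier CAT1, had 16. Substrate classes here were set by SLC family number, so a member can carry another substrate than its class names. Slc16a10, for example, stands in the class of carboxylates, organic ions and bile acids. By these classes, 31 of 34 carriers of metals and heme and 41 of 47 mitochondrial carriers had at least 1 region. So did 49 of 63 carriers of amino acids and peptides, and all 13 of nucleosides, nucleotide sugars and acetyl-CoA. In 46 of the 65 genes for carboxylates, organic ions and bile acids there was a region. A filter on low counts removed 17 SLC regions, which left 1263 regions of 276 genes for the tests.

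No SLC promoter passed the test in any comparison with all libraries, although their median level per length was above that of other SLC regions. A promoter here is the stretch from 250 bases before to 50 bases after a start in RefSeq (GRCm38.p6), a table that held 252 of the 331 members, and 132 SLC regions at 125 genes touched one. Their median level was 33 CPM per kb, against 11.4 CPM per kb at other SLC regions. Over all regions the medians were 40.4 CPM per kb at promoters and 12 CPM per kb elsewhere. None of the 132 passed an adjusted p of 0.05 in edgeR's quasi-likelihood test in any comparison. The share called among all promoter regions was 0.353% for FntbKO eTreg against FntbKO cTreg, 1.12% for WT eTreg against WT cTreg, 0.419% for FntbKO cTreg against WT cTreg and 0.209% for FntbKO eTreg against WT eTreg. At an unadjusted p under 0.05 the SLC promoter counts were 13, 17, 18 and 7 in the same order, DESeq2 called 1, 0, 0 and 0, and limma called 0, 1, 1 and 0. With the replicate number as a block edgeR called 4, 5, 2 and 1, and without single libraries at most 3 in any comparison.

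Mitochondrial and metal carriers had 5 of the 6 most open promoters per kb. These classes hold 25 and 20 of the 125 genes with a region at a promoter. Slc25a42, a mitochondrial carrier of coenzyme A, averaged 208.3 ± 14.2 CPM per kb in FntbKO eTreg, 203.9 ± 0.58 in FntbKO cTreg, 190.4 ± 11.1 in WT eTreg and 188.5 ± 8.1 in WT cTreg (SD, n = 2, 2, 3 and 3). Slc30a5, the zinc transporter ZnT5 of the secretory pathway, averaged 156.6, 163.9, 170.1 and 166.7 CPM per kb in those groups. Slc39a10 (ZIP10, a zinc importer), Slc31a1 (the copper importer CTR1), Slc25a28 (mitoferrin-2, which brings iron into mitochondria) and Slc38a9 (a lysosomal arginine sensor) stood next in the order. These levels differ little, and no order between neighbours was tested. Over the 25 mitochondrial carriers with a promoter region the median was 48 CPM per kb, and over 20 metal carriers 41.5. It was 39.4 over 19 amino acid carriers, 39.4 over 11 sugar carriers, and 8.54 over 13 carriers of carboxylates, organic ions and bile acids.

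The promoters of 5 genes, chosen after their values and letters were seen, are shown with the letters that a search for short motifs found. All 5 motifs were searched on both strands in 32851 mouse promoters, 324 of them of SLC genes. The letters CACGTG, the E-box bound by factors such as MYC, TFEB and USF, were in 12.04% of SLC promoters, against 6.021% of all promoters. Among the 165 promoters of SLC genes with a region at any of their promoters, the share was 14.55%. No such share was taken for other genes with a region at a promoter. TGANTCA, a loose AP-1 pattern, was in 6.17% of SLC promoters, against 6.75% of all. It takes in the usual AP-1 site TGA(C/G)TCA, and also TGAATCA and TGATTCA. TGACGTCA, the CRE, was in 0.926%, against 1.55%. TGTTTAC, a forkhead motif, was in 1.85%, against 3.17%. TGATGNAAN, an amino acid response element, was in 2.78%, against 3.44%. A CACGTG or TGACGTCA reads the same on both strands, and the motifs overlap where the letters do. A match is a description of the letters and not a bound site.

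Below are the 250 bases before the start, written 5′ to 3′ on the gene's strand, from RefSeq (GRCm38.p6), with motif letters in capitals. Slc39a11 is shown at both of its starts because its regions called between genotypes lay elsewhere. Slc7a1, Slc16a1 and Slc20a1 (a phosphate carrier) show an AP-1 or E-box match in carriers used by T cells, Slc20a1 without any called region. Of the other T cell carriers, Slc29a1 had an E-box match. Slc16a3, Slc19a1, Slc38a2, Slc39a10 and Slc7a6 had no motif match in the windows that touched a region. Slc9a9 shows a match to TGANTCA followed by a match to the amino acid response element. Its letters TGAATCA are not the usual AP-1 site.
Slc39a11, chr11:113565816-113566065, minus strand: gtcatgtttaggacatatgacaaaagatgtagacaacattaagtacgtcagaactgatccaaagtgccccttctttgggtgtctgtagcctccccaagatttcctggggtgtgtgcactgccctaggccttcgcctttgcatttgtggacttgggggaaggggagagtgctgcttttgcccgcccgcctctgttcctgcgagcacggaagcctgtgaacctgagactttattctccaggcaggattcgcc
Slc39a11, chr11:113650093-113650342, minus strand: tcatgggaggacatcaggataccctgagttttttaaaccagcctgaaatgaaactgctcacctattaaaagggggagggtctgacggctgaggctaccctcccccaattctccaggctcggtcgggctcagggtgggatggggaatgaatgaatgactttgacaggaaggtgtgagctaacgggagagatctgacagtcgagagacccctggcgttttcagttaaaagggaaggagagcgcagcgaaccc
Slc7a1, chr5:148399905-148400154, minus strand: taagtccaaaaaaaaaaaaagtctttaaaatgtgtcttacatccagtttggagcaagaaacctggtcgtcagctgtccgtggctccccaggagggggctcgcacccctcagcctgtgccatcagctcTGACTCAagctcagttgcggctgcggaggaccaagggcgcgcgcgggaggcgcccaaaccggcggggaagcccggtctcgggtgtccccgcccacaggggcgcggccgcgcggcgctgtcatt
Slc16a1, chr3:104638414-104638663, plus strand: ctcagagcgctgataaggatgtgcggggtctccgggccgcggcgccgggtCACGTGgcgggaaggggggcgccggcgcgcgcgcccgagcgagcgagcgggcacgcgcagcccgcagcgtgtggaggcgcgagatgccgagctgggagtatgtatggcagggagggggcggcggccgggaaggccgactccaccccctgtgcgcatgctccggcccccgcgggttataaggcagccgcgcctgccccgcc
Slc20a1, chr2:129198523-129198772, plus strand: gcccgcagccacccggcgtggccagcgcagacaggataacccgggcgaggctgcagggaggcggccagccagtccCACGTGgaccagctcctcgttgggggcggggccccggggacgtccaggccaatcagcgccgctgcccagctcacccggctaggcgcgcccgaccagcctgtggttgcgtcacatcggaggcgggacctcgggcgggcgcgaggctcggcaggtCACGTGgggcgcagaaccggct
Slc9a9, chr9:94669642-94669891, plus strand: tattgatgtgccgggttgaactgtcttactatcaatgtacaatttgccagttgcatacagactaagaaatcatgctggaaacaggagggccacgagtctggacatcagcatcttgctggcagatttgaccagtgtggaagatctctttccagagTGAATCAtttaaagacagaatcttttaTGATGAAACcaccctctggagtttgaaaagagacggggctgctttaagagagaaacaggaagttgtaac

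None of the 5 motifs was found in either Slc39a11 window. The region at the inner start, chr11:113565321-113566007, averaged 43.2, 32.4, 52 and 47.5 CPM per kb in FntbKO eTreg, FntbKO cTreg, WT eTreg and WT cTreg, and its difference between genotypes did not pass the test (log2 fold change −0.27 in eTreg, adjusted p = 0.45, and −0.54 in cTreg, adjusted p = 0.0823, edgeR). The region at the outer start, which also overlaps Cog1, was not called either (−0.37 in eTreg and −0.32 in cTreg). The region at the Slc7a1 promoter averaged 115.8, 116.7, 121.7 and 129.9 CPM per kb in the same order, that at the Slc20a1 promoter 134.6, 142.8, 150.8 and 148.6, and that at the Slc16a1 promoter 32.5, 25.7, 36.8 and 32.8.

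Between genotypes, SLC regions fell more often than they rose, and most of the called falls belonged to 1 gene. In FntbKO cTreg against WT cTreg, 21 of 1263 SLC regions in 8 genes were called, 1 higher and 20 lower. That is 1.66%, against a percent called of 0.568 over all 76216 tested regions, of which 0.378% were lower, and 13 of the 21 were regions of Slc39a11. In FntbKO eTreg against WT eTreg, 13 SLC regions in 4 genes were called, all lower, which is 1.03%, against 0.35 over all regions (0.169% lower), and 10 of the 13 were regions of Slc39a11. Without Slc39a11 the shares were 0.657% in cTreg (1 higher and 7 lower of 1218) and 0.246% in eTreg (3 lower), near the shares of all regions. Counted by gene, 2.9% of the 276 tested SLC genes had a call in cTreg, against 2.09% of all genes, and 1.45% in eTreg, against 1.37%. The median log2 fold change of SLC regions was −0.07 in cTreg and −0.06 in eTreg, against −0.01 and −9.1e-04 over all regions, and without Slc39a11 it was −0.06 and −0.04. Without that gene 55.9% of the SLC values in cTreg and 55% in eTreg were below 0, against 50.7% and 50.1% of all. The count rests on single libraries. Where a FntbKO library is left out, its group keeps 1, which is taken to vary like the other groups. In cTreg it was 5 without FntbKO cTreg replicate 1, 11 without WT cTreg replicate 2 and 32 without FntbKO cTreg replicate 2. In eTreg it was 3 without FntbKO eTreg replicate 1, without FntbKO eTreg replicate 2 and without WT eTreg replicate 3, 6 without WT eTreg replicate 1, and 8 without WT eTreg replicate 2 or WT cTreg replicate 3.

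Slc39a11 lies on the minus strand of chr11:113244851-113650200, so its 3′ end has the lower coordinate. The next protein-coding gene past that end is Sox9, 365.6 kb from the outermost assigned region. The 14 regions called in cTreg or eTreg, 9 of them in both, spanned 114.9 kb between positions 113153341 and 113268225. Of these, 13 lay past the 3′ end and 1 inside the gene. All 21 tested regions in that stretch had lower fitted values in FntbKO than in WT cells in each subset, with a median log2 fold change of −1.84 in cTreg and −1.25 in eTreg. Over all 45 regions of the gene, 44 fitted values were below 0 in cTreg (median −0.93) and 41 in eTreg (median −0.77).

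The most strongly supported of these regions was chr11:113173931-113174741, 70.1 kb past the gene. It had 10.4 and 14.4 CPM in FntbKO eTreg, against 51.9, 58.5 and 58.4 CPM in WT eTreg, and 10.4 and 19.6 CPM in FntbKO cTreg, against 75.3, 72.3 and 68.8 CPM in WT cTreg. All 4 FntbKO libraries were thus below all 6 WT libraries. The log2 fold change was −2.14 in eTreg (SE 0.19, adjusted p = 1.36e-05) and −2.20 in cTreg (SE 0.18, adjusted p = 1.95e-06, edgeR), and both calls were kept without any single library.

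The region inside the gene, chr11:113267532-113268225, about 23 kb from the 3′ end, was also low in every FntbKO library. It had 7.21 and 6.99 CPM in FntbKO eTreg, against 20.5, 21.1 and 19 CPM in WT eTreg, and 4.10 and 7.13 CPM in FntbKO cTreg, against 21.2, 20.3 and 16.9 CPM in WT cTreg. Its log2 fold change was −1.51 (SE 0.23, adjusted p = 0.00235) in eTreg and −1.73 (SE 0.22, adjusted p = 1.67e-04) in cTreg, and the eTreg call was lost without FntbKO eTreg replicate 2. At chr11:113190533-113190948, 53.9 kb past the gene, values were 30.1 and 25.6 CPM in FntbKO eTreg, against 51.6, 44.1 and 49.5 in WT eTreg, and 25 and 31.9 CPM in FntbKO cTreg, against 59.3, 57 and 51.9 in WT cTreg. Both comparisons were called there, at −0.81 (SE 0.14) in eTreg and −0.96 (SE 0.13) in cTreg, the eTreg one not without FntbKO eTreg replicate 2.

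Not every region of the stretch fell alike. Near 36 kb past the gene, 2 neighbouring regions had log2 fold changes of −0.58 and −0.47 in cTreg and −0.65 and −0.53 in eTreg, none of them called. At chr11:113206163-113206510 the difference was −2.09 in cTreg (SE 0.34, adjusted p = 0.00275) and −0.39 in eTreg (SE 0.34, adjusted p = 0.687). The interaction of genotype and subset there was 1.70 (SE 0.48, unadjusted p = 0.0015), and it did not pass adjustment over all regions. The 100 kb limit cut the stretch: the next 2 regions, 179.8 and 183.5 kb past the gene, lie outside it and had −3.05 (adjusted p = 0.00135) and −2.34 (adjusted p = 0.0188) in cTreg, and −1.79 (adjusted p = 0.103) and −1.49 (adjusted p = 0.149) in eTreg. Just inside it, at 91.1 kb, the values were −2.26 (adjusted p = 0.0123) in cTreg and −2.04 (adjusted p = 0.0461) in eTreg. On the other side of the gene, the regions at Cog1 and Fam104a had no call. Without single libraries 5 to 12 of the 13 cTreg calls of Slc39a11 were kept, fewest without FntbKO cTreg replicate 1, and 3 to 10 of the 10 eTreg calls, with 3 without FntbKO eTreg replicate 1, FntbKO eTreg replicate 2 or WT eTreg replicate 3, 5 without WT eTreg replicate 1 or 2, and 6 without WT cTreg replicate 3. The cause of the run was not tested.

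**Figure D1:**
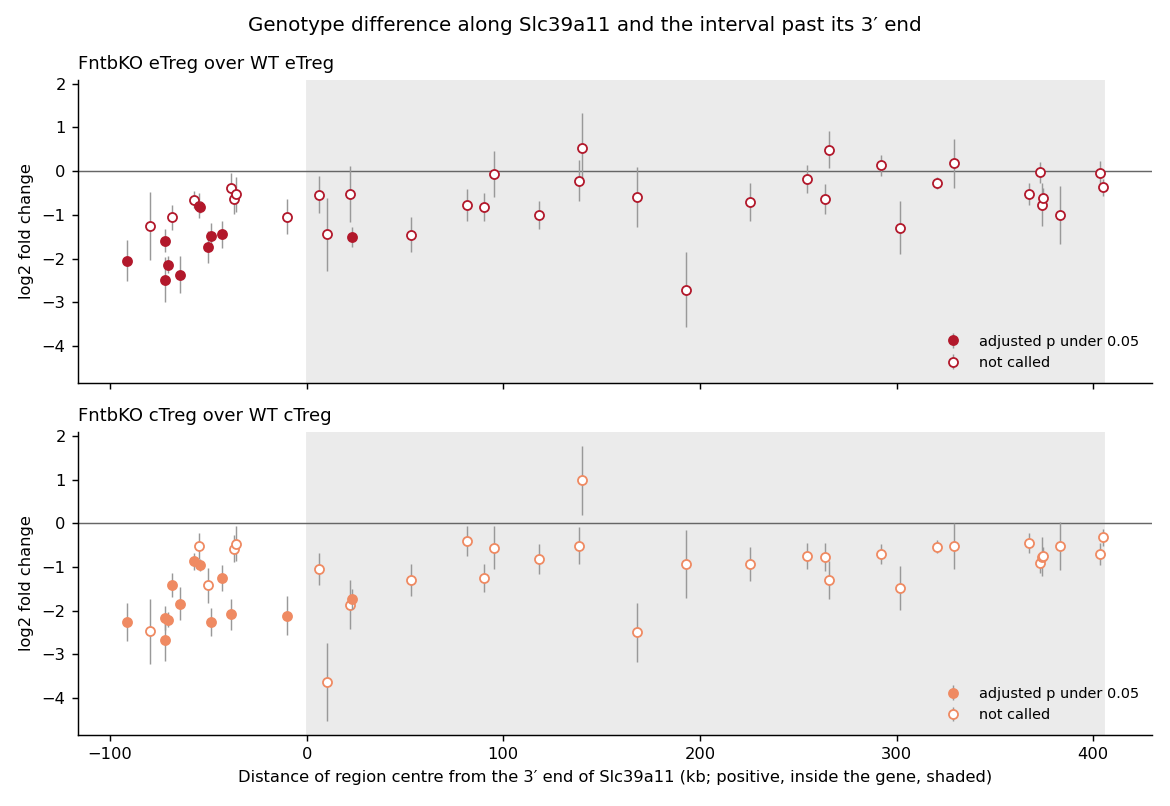
Log2 fold change of FntbKO over WT (vertical axis, with SE) at the 45 tested Slc39a11 regions, by distance of the region's centre in kb from the 3′ end of the gene (horizontal axis, shaded inside the gene), for eTreg (upper panel) and cTreg (lower panel). Filled points passed an adjusted p of 0.05: 10 in eTreg and 13 in cTreg, all below 0 and nearly all past the 3′ end.

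Few other SLC genes differed between genotypes, and they carry different substrates. With 2 or 3 libraries a group, groups that do not overlap are common: this held for 48.6% of all regions in FntbKO eTreg against FntbKO cTreg, 21.9% in WT eTreg against WT cTreg, 29.7% in FntbKO cTreg against WT cTreg and 31.1% in FntbKO eTreg against WT eTreg, and for every called SLC region. Slc22a28, a mouse member of the organic anion transporter family, was lower in both subsets at chr19:8019263-8020462, which lies 41.5 kb from it and 52.7 kb from Slc22a27. It had 4.81 and 6.49 CPM in FntbKO eTreg, against 11.6, 13.1 and 17.1 CPM in WT eTreg, and 3.28 and 4.80 CPM in FntbKO cTreg, against 7.54, 12.7 and 12.8 CPM in WT cTreg. The log2 fold change was −1.26 (SE 0.29, adjusted p = 0.045) in eTreg and −1.40 (SE 0.29, adjusted p = 0.0173) in cTreg. Outside Slc39a11 it was the only region called in both subsets, 1 of 7 lower in cTreg (14.3%) and 1 of 3 lower in eTreg (33.3%), and the eTreg call was lost without any 1 of the 5 eTreg libraries or without WT cTreg replicate 3. Every cTreg call outside Slc39a11 was lost without FntbKO cTreg replicate 1.

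Among amino acid carriers, Slc38a1 and Slc6a19 were lower in FntbKO cTreg. Slc38a1 encodes SNAT1, a glutamine carrier, and its region chr15:96640421-96641076 had 26.1 and 39.3 CPM in FntbKO cTreg, against 54, 61.9 and 50.1 CPM in WT cTreg (−0.73, SE 0.14, adjusted p = 0.0151). In eTreg it had 60.1 and 55.3 CPM in FntbKO, against 67.2, 63 and 77.9 CPM in WT, not called (−0.26, adjusted p = 0.455). Slc6a19, the neutral amino acid carrier B0AT1 known from gut and kidney, had 16.7 and 19.8 CPM in FntbKO cTreg, against 31, 28.2 and 29.9 CPM in WT cTreg (−0.69, SE 0.15, adjusted p = 0.0281). Its eTreg values were 24 and 27.6 CPM in FntbKO and 21.4, 24.7 and 21.4 CPM in WT, and it had the smallest interaction p of all SLC regions (0.89, SE 0.22, unadjusted p = 0.00028), which did not pass adjustment.

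Sugar, ion and mitochondrial carriers gave 1 or 2 regions each. Slc2a5, the fructose carrier GLUT5, had 2.46 and 3.63 CPM in FntbKO cTreg, against 6.98, 9.29 and 6.76 CPM in WT cTreg, 1.66 kb from its span (−1.27, SE 0.29, adjusted p = 0.0398). Slc25a12, a mitochondrial aspartate-glutamate carrier, had 3.01 and 2.20 CPM in FntbKO cTreg, against 6.70, 6.19 and 8.45 CPM in WT cTreg (−1.49, SE 0.35, adjusted p = 0.0456). Slc9a9 was lower at 2 of its 40 regions, by −0.76 (SE 0.17) and −0.55 (SE 0.12). In the second of these the values were 34.7 and 42.7 CPM in FntbKO cTreg, against 57.5, 61.4 and 53 CPM in WT cTreg.

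Only 1 SLC region was called higher in FntbKO than in WT cells in the main fit, in cTreg. It lies 38.2 kb from Slc44a3, a choline transporter-like protein, and had 26.1 and 14.9 CPM in FntbKO cTreg, against 8.94, 5.16 and 7.18 CPM in WT cTreg (1.49, SE 0.26, adjusted p = 0.00442). In eTreg the values were 16 and 13.6 CPM in FntbKO and 10.4, 7.07 and 6.79 CPM in WT, not called (0.86).

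In eTreg, 2 further genes were lower in FntbKO. Slc19a1 encodes the reduced folate carrier, and its region 9.09 kb before the gene, chr10:77022758-77023177, had 2.40 and 1.57 CPM in FntbKO eTreg, against 9.28, 6.77 and 7.13 CPM in WT eTreg (−2.01, SE 0.39, adjusted p = 0.0182). Slc5a11 encodes SMIT2, a sodium-coupled carrier of myo-inositol, and its region had 0.401 and 0.590 CPM in FntbKO eTreg, against 3.13, 4.98 and 5.43 CPM in WT eTreg (−3.07, SE 0.61, adjusted p = 0.019), a difference that rests on few counts in FntbKO. Either call was lost without either FntbKO eTreg library or without WT eTreg replicate 3, among others.

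**Figure D2:**
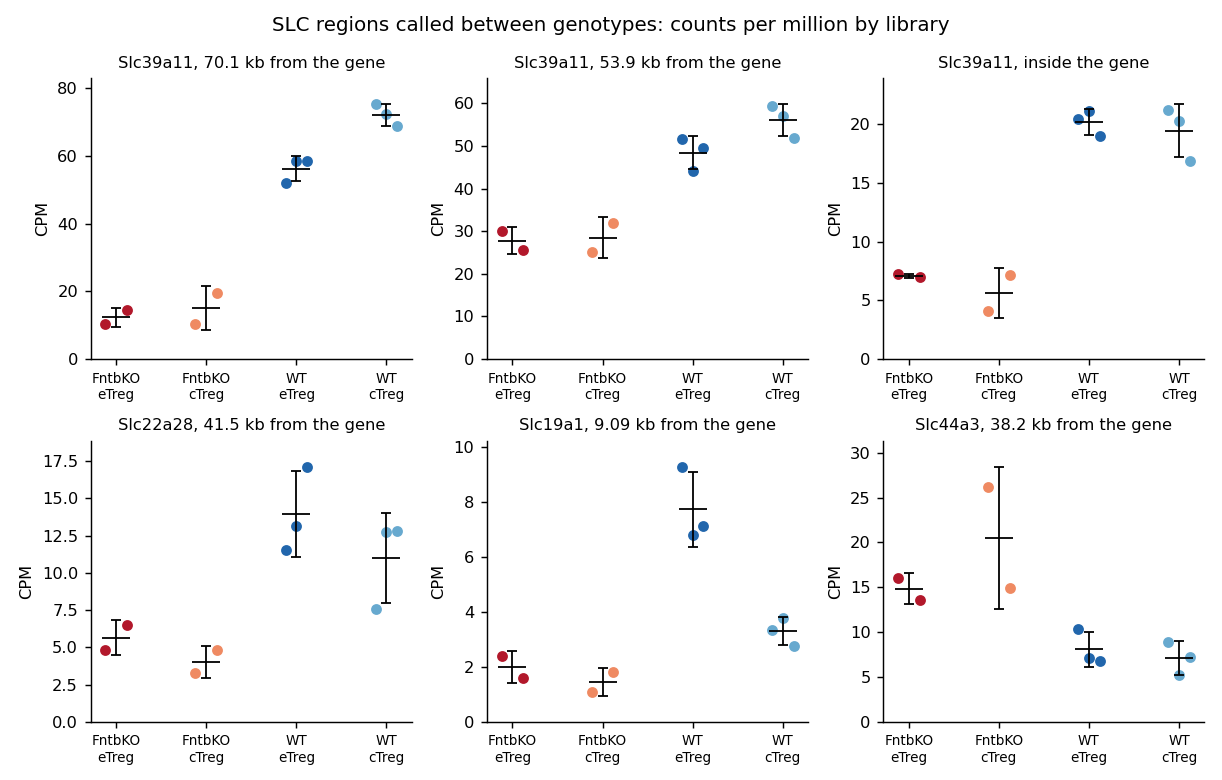
CPM (vertical axis, scaled by TMM) in each library, by group, at 6 SLC regions called between genotypes; points are libraries, the bar is the mean and the whiskers its SD (n = 2, 2, 3 and 3). In the 3 Slc39a11 panels and the Slc22a28 panel all FntbKO libraries lie below all WT libraries, while the Slc44a3 panel shows FntbKO above WT.

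Between subsets, SLC regions were called at about the rate of all regions. In FntbKO eTreg against FntbKO cTreg, 20 SLC regions of 16 genes were called, 16 higher and 4 lower, which is 1.58%, against a percent called of 1.36 over all regions (0.966% higher and 0.39% lower). In WT eTreg against WT cTreg, 50 regions of 41 genes were called, 28 higher and 22 lower, which is 3.96%, against 3.44 (1.83% higher and 1.61% lower). Of the 276 genes tested, 5.80% had a call in FntbKO, against 5.01% of all genes with a tested region, and 14.9% in WT, against 11.3%. The median log2 fold change over SLC regions was 0.03 in FntbKO and −0.0057 in WT, against −0.0042 and −0.01 over all regions.

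A FntbKO group that loses a library keeps 1, which is taken to vary like the other groups. The FntbKO count depends on which libraries enter. It was 1 without FntbKO cTreg replicate 1, 4 without FntbKO eTreg replicate 1, 42 without FntbKO cTreg replicate 2, 13 without WT cTreg replicate 3 and 33 without WT cTreg replicate 2. Without FntbKO eTreg replicate 2 edgeR called 0 of them, and 139 had an unadjusted p under 0.05. In WT the count was 9 without WT cTreg replicate 1, 19 without WT eTreg replicate 1, 4 without WT cTreg replicate 3 and 10 without WT eTreg replicate 3. None of the 20 FntbKO calls was kept without every single library in turn, and 3 of the 50 WT calls were: a region of Slc5a10 and both regions of Slc17a6.

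The WT and FntbKO subset comparisons share no library. Of the 16 regions higher in FntbKO eTreg, 4 (25%) were also among the 28 higher in WT eTreg (14.3% of those), and of the 4 lower in FntbKO eTreg, 3 (75%) were among the 22 lower in WT eTreg (13.6%). No region was called in opposite directions. All 20 FntbKO calls had the same sign in WT, and 45 of the 50 WT calls had the same sign in FntbKO. These overlaps and signs were not counted over all regions, so they are not shown to be particular to SLC regions.

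Slc17a6 encodes VGLUT2, a carrier that loads glutamate into synaptic vesicles, and both of its called regions lay past its 3′ end. The region chr7:51723910-51724417, 52.8 kb from the gene and 136.2 kb from Fancf, had 40.5 and 49.2 CPM in FntbKO eTreg, against 11.1 and 20.4 CPM in FntbKO cTreg, and 69.1, 48.8 and 56 CPM in WT eTreg, against 28.3, 31.7 and 24.9 CPM in WT cTreg. Within each genotype every eTreg library exceeded every cTreg library, with log2 fold changes of 1.47 (SE 0.22, adjusted p = 0.00651) in FntbKO and 1.04 (SE 0.17, adjusted p = 0.00483) in WT. The second region, 79.1 kb from the gene, was weaker in level, with 2.80 and 4.72 CPM in FntbKO eTreg, against 0.957 and 1.04 CPM in FntbKO cTreg, and 6.26, 7.57 and 8.82 CPM in WT eTreg, against 2.51, 1.03 and 1.48 CPM in WT cTreg. It was higher by 1.94 (SE 0.47, adjusted p = 0.0371) in FntbKO and 2.14 (SE 0.36, adjusted p = 0.00188) in WT. The promoter region of Slc17a6 itself was the least open of the 125 gene promoters, at 2.44 CPM per kb in WT cTreg.

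Slc22a15, a carrier of organic cations and zwitterions, was higher at chr3:101948362-101949092, 20.1 kb before the gene. It had 26 and 38 CPM in FntbKO eTreg, against 9.85 and 16.2 CPM in FntbKO cTreg (1.27, SE 0.21, adjusted p = 0.00616), and 35.1, 31.5 and 44.5 CPM in WT eTreg, against 21.2, 20.1 and 18.5 CPM in WT cTreg (0.88, SE 0.17, adjusted p = 0.0069). Slc39a14 encodes ZIP14, which imports zinc, iron and manganese. A region inside it had 7.61 and 9.05 CPM in FntbKO eTreg, against 2.46 and 3.44 CPM in FntbKO cTreg (1.47, SE 0.32, adjusted p = 0.0215). The same region had 10.4, 10.2 and 8.82 CPM in WT eTreg, against 3.91, 5.16 and 6.55 CPM in WT cTreg (0.90, SE 0.25, adjusted p = 0.0461). That WT call was lost when any single WT library was left out.

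The regions lower in eTreg of both genotypes that are described here lay inside Slc23a4 (a nucleobase carrier, as known from rat) and Slc5a9 (SGLT4, a sodium-coupled carrier of mannose). At Slc23a4 values were 4.61 and 3.84 CPM in FntbKO eTreg, against 13.4 and 8.56 CPM in FntbKO cTreg (−1.37, SE 0.35, adjusted p = 0.0431), and 5.42, 3.79 and 3.05 CPM in WT eTreg, against 10.6, 5.68 and 9.19 CPM in WT cTreg (−1.05, SE 0.29, adjusted p = 0.0398). At Slc5a9 they were 20.8 and 17.9 CPM in FntbKO eTreg, against 34.5 and 29.2 CPM in FntbKO cTreg (−0.72, adjusted p = 0.0389), and 20.5, 19.9 and 15.8 CPM in WT eTreg, against 26.8, 31 and 24.5 CPM in WT cTreg (−0.53, adjusted p = 0.0421). At both genes the calls of each genotype were lost without WT eTreg replicate 1 or WT cTreg replicate 3, among others.

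**Figure D3:**
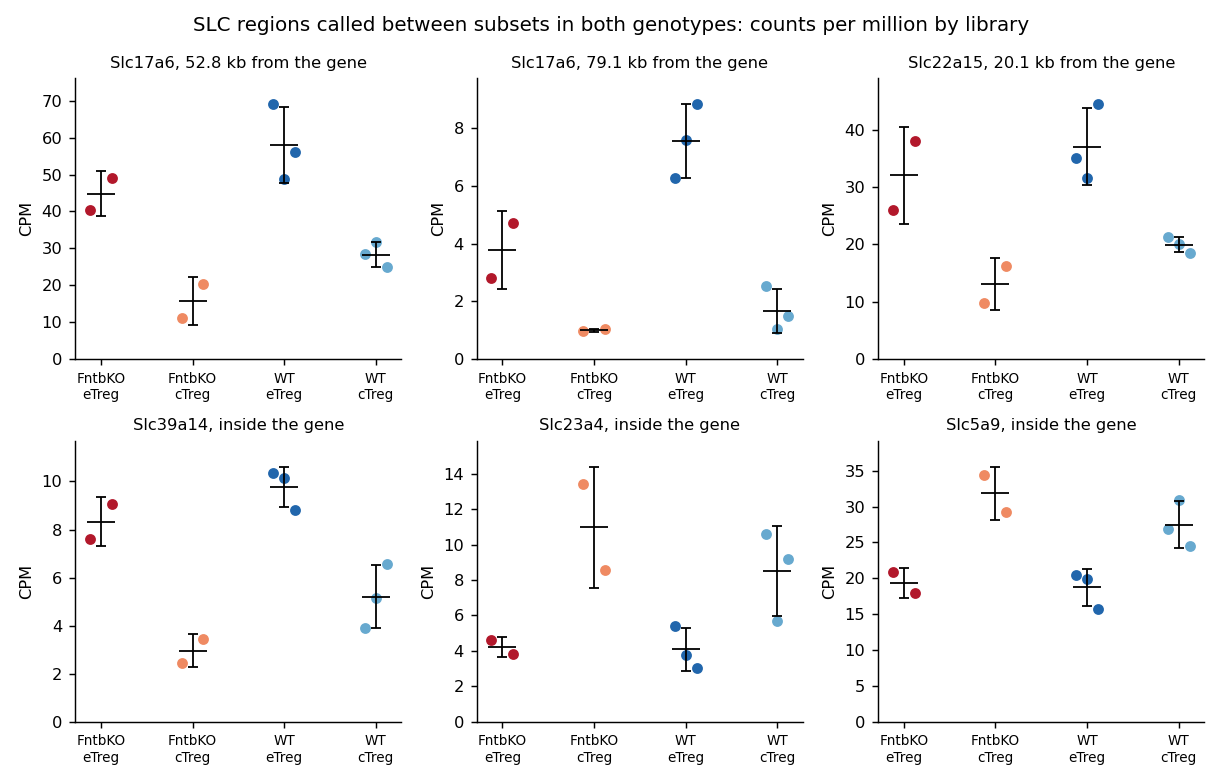
CPM (vertical axis, scaled by TMM) in each library, by group, at 6 of the 7 SLC regions called between subsets in both genotypes; points are libraries, the bar is the mean and the whiskers its SD (n = 2, 2, 3 and 3). At Slc17a6, Slc22a15 and Slc39a14 the eTreg libraries lie above the cTreg libraries of their genotype, and at Slc23a4 and Slc5a9 below them.

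In FntbKO, further regions higher in eTreg belonged to carriers of amino acids, protons and nucleotides. Slc1a4, the neutral amino acid exchanger ASCT1, had 21.4 and 23.8 CPM in FntbKO eTreg, against 6.70 and 11.6 CPM in FntbKO cTreg, 19 kb from its span (1.26, SE 0.23, adjusted p = 0.0075). Slc38a1 had 60.1 and 55.3 CPM in FntbKO eTreg, against 26.1 and 39.3 CPM in FntbKO cTreg (0.79, SE 0.16, adjusted p = 0.012). Slc9a9 was higher at 3 regions, by 0.87, 1.37 and 0.78, the last with 64.3 and 69.4 CPM in FntbKO eTreg, against 34.7 and 42.7 CPM in FntbKO cTreg (SE 0.13, adjusted p = 0.00549). These genes show how the comparisons are tied: the FntbKO cTreg libraries that were low at Slc38a1 and at 2 of the Slc9a9 regions here are the same ones that gave the genotype calls in cTreg, so these are not separate results. In WT the subset differences at the Slc38a1 region and the third Slc9a9 region were 0.33 and 0.35, not called.

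Slc25a33, a mitochondrial carrier of pyrimidine nucleotides, was higher by 1.08 (SE 0.23), Slc25a53, a further member of the mitochondrial family, by 1.26 (SE 0.33), Slc17a8, the vesicular glutamate carrier VGLUT3, by 1.43 (SE 0.29), and Slc4a5, a sodium-bicarbonate cotransporter, by 0.99 (SE 0.25). Slc30a7, the Golgi zinc transporter ZnT7, was lower by −1.95 (SE 0.42), with 2.20 and 2.46 CPM in FntbKO eTreg, against 13 and 5.77 CPM in FntbKO cTreg. The 2 FntbKO cTreg libraries were far apart there.

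In WT, the lower regions held carriers of arginine, zinc, lactate and vitamins. Slc7a1 was lower at chr5:148387920-148388606, inside the gene, with 4.22, 4.18 and 2.21 CPM in WT eTreg, against 9.36, 8.60 and 11.4 CPM in WT cTreg (−1.44, SE 0.29, adjusted p = 0.00664). Slc16a1, the lactate carrier MCT1, was lower 22 kb before the gene, with 30.1, 35.3 and 28.8 CPM in WT eTreg, against 49.6, 46.8 and 50.9 CPM in WT cTreg (−0.64, SE 0.13, adjusted p = 0.00622). Slc38a2, the glutamine carrier SNAT2, had 14.5, 13.1 and 8.14 CPM in WT eTreg, against 21.6, 22.7 and 20.7 CPM in WT cTreg at a region 78.5 kb before the gene (−0.84, SE 0.19, adjusted p = 0.0141). Each of these 3 calls was lost without WT cTreg replicate 3 and without WT eTreg replicate 3, and in FntbKO the same regions differed by −0.60, −0.23 and −0.21, not called.

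Slc38a6, a further member of the SNAT family, was lower by −1.36 (SE 0.27), with 2.89, 4.78 and 3.05 CPM in WT eTreg, against 8.38, 7.91 and 11.6 CPM in WT cTreg. The zinc transporter genes Slc30a5 and Slc30a7 were lower at internal regions by −1.27 (SE 0.29) and −1.23 (SE 0.31), and a second Slc30a7 region was lower by −0.53. Slc23a2, the vitamin C carrier SVCT2, was lower by −0.74 (SE 0.18), and Slc19a3, the thiamine carrier THTR2, by −0.71 (SE 0.17). Slc16a12 and Slc16a5, of the monocarboxylate carrier family, were lower by −1.0 and −0.95, and Slc44a2, a choline transporter-like protein, by −1.12.

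The regions higher in WT eTreg outside Slc17a6 included zinc and sugar carriers. A region inside Slc5a10 (SGLT5, a sodium-coupled sugar carrier), which also lies inside Fam83g, had 12.5, 16.7 and 18.5 CPM in WT eTreg, against 7.82, 7.57 and 7.29 CPM in WT cTreg (1.07, SE 0.20, adjusted p = 0.00446). Slc30a1, the zinc exporter ZnT1, was higher by 0.76 (SE 0.21) at a region 30.6 kb before the gene, and Slc30a4, the vesicular zinc transporter ZnT4, by 0.59 (SE 0.15). Slc7a10 (the small neutral amino acid exchanger Asc-1) was higher by 0.90, Slc41a2 (a magnesium carrier) by 0.63 and Slc15a1 (the peptide carrier PEPT1) by 0.63 at 1 region, while another Slc15a1 region was lower by −0.45.

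The Slc19a1 region 9.09 kb before the gene was also higher in WT eTreg, with 9.28, 6.77 and 7.13 CPM, against 3.35, 3.79 and 2.75 CPM in WT cTreg (1.24, SE 0.32, adjusted p = 0.0286). The same WT eTreg libraries gave its genotype call above. Slc39a11 had 4 subset calls in WT, 2 higher and 2 lower. The higher one at chr11:113194766-113195064, 49.8 kb past the gene, had 9.16, 12.2 and 13.6 CPM in WT eTreg, against 3.35, 4.99 and 4.44 CPM in WT cTreg (1.45, SE 0.31, adjusted p = 0.00936), and it was also lower in FntbKO eTreg, at 2.00 and 4.53 CPM.

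Some subset calls, in WT and in FntbKO, rest on very few counts in a group. At a region inside Slc20a2, a phosphate carrier, 36 counts stood in the 3 WT eTreg libraries, against 0 in the 3 WT cTreg libraries. At a region inside Slc8a1, the sodium-calcium exchanger NCX1, there were 52 counts in WT eTreg and 2 in WT cTreg. A region of Slc44a5, of the choline transporter-like family, had 34 counts in FntbKO eTreg and 2 in FntbKO cTreg. No fold change is given for these 3.

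**Figure D4:**
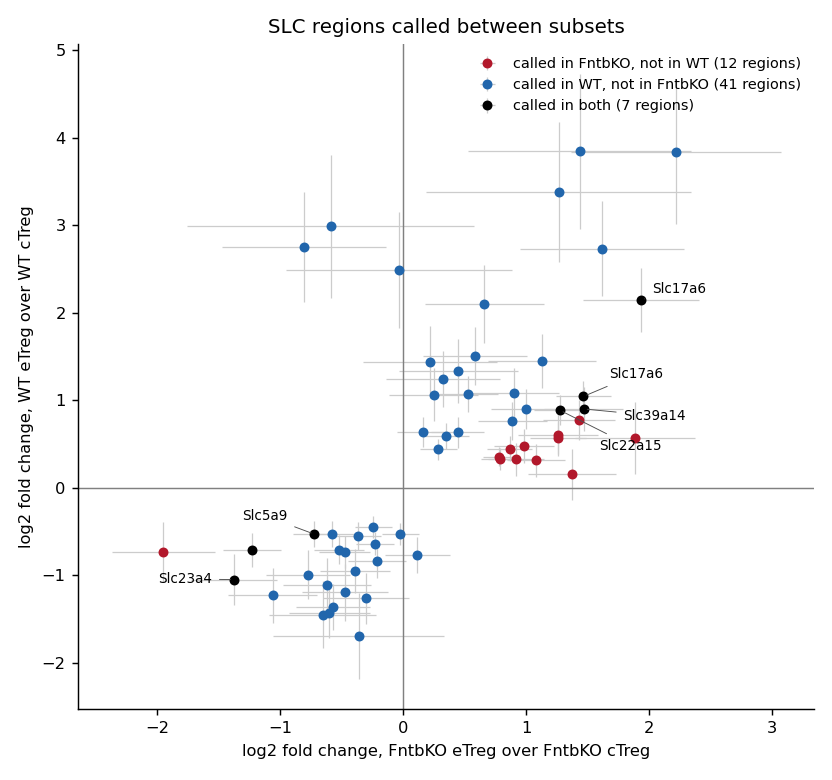
Log2 fold change of FntbKO eTreg over FntbKO cTreg (horizontal axis) and of WT eTreg over WT cTreg (vertical axis), with SE, at 60 of the 63 SLC regions called in either; the 3 with at most 3 counts in a group are not drawn. The 7 regions called in both (black, 6 of them named) lie in the upper right or lower left, and no called region of FntbKO lies on the other side of 0 in WT.

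By substrate class the genotype calls stood in metals and heme, where all 13 in cTreg and all 10 in eTreg were of Slc39a11. The 174 regions of that class had 7.47% called in cTreg and 5.75% in eTreg, against 0.568% and 0.35% of all regions. Carriers of amino acids and peptides had 2 lower of 238 regions in cTreg, and inorganic ion carriers 2 lower of 230. In the WT subset comparison, where 3.44% of all regions were called, 11 of 174 metal regions were called (6.32%, 6 higher and 5 lower). Of these 11, 4 were regions of Slc39a11. The calls were 8 of 109 for vitamins, choline and fatty acids (3 higher and 5 lower) and 9 of 238 for amino acids and peptides (5 higher and 4 lower). They were 8 of 181 for carboxylates, organic ions and bile acids (3 higher and 5 lower), and 1 of 45 for nucleosides and nucleotide sugars. In FntbKO eTreg against FntbKO cTreg the class of carboxylates, organic ions and bile acids had 6 of 181 (5 higher and 1 lower). That is 3.31%, the highest share of any class, against 1.36% of all regions and 0% to 1.83% in the other classes. Slc17a6 and Slc22a15 gave 2 of these calls each, and no class was tested as a set.

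**Figure D5:**
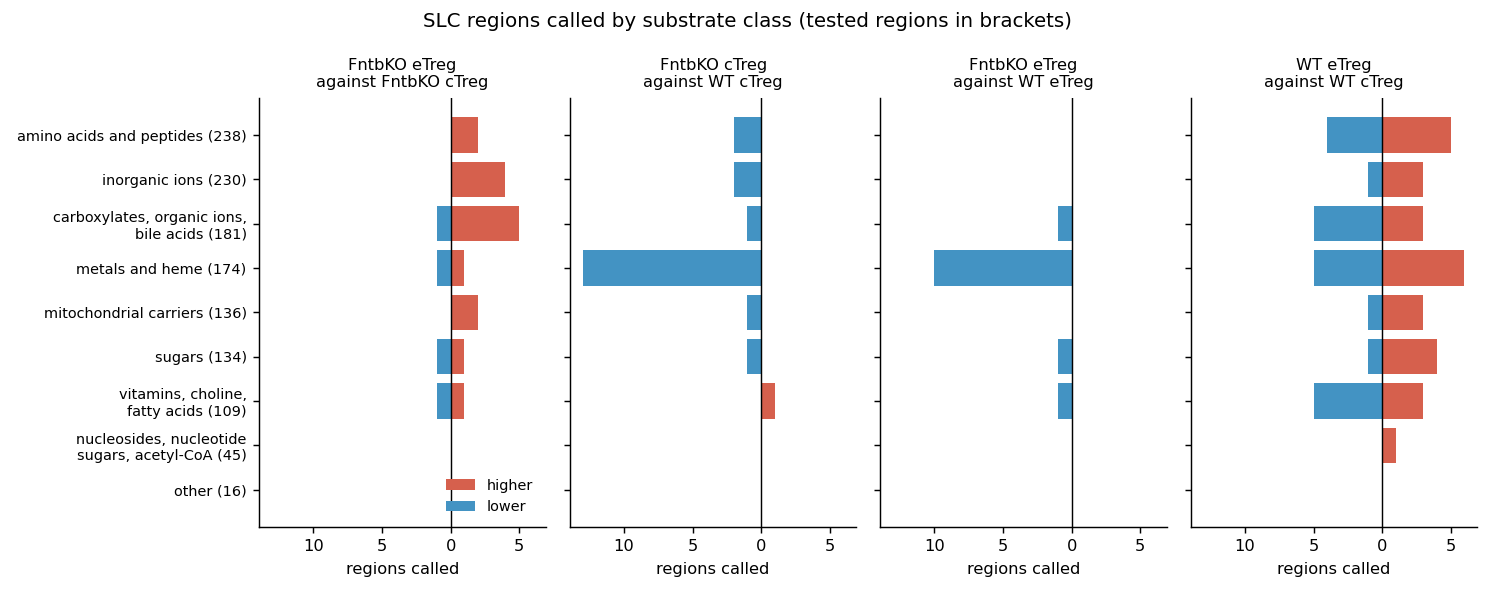
Number of SLC regions called higher (right of 0) and lower (left of 0) in each comparison (panels), by substrate class (rows, with tested regions in brackets). The bars for metals and heme in the genotype panels, 13 in cTreg and 10 in eTreg, are all Slc39a11.

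Among 16 carriers with a known use in T cells, 14 had tested regions, 113 in all, and Slc40a1 (the iron exporter ferroportin) and Slc25a1 (the mitochondrial citrate carrier) had none. Of the 113, 1 was called in FntbKO eTreg against FntbKO cTreg (0.885%, against 1.36% of all regions), 4 in WT eTreg against WT cTreg (3.54%, against 3.44%), and 1 in each genotype comparison (0.885%, against 0.568% in cTreg and 0.35% in eTreg). These calls are the regions of Slc38a1, Slc7a1, Slc38a2, Slc16a1 and Slc19a1 given above. The region of smallest p at the taurine carrier Slc6a6 had 32.7 and 34.8 CPM in FntbKO eTreg, against 17.1 and 24.6 CPM in FntbKO cTreg (0.67, SE 0.18, adjusted p = 0.0581). At Slc39a10 it had 4.01 and 5.31 CPM in FntbKO eTreg, against 12.9 and 9.27 CPM in FntbKO cTreg (−1.20, SE 0.33, adjusted p = 0.0641), and at Slc39a6, the zinc importer ZIP6, 12.8 and 12 CPM in FntbKO eTreg, against 5.20 and 6.87 CPM in FntbKO cTreg (1.01, SE 0.29, adjusted p = 0.0673). At Slc11a2, the iron importer DMT1, it had 2.05 and 2.46 CPM in FntbKO cTreg, against 4.33, 6.02 and 4.75 CPM in WT cTreg (−1.12, SE 0.34, adjusted p = 0.138). None of these 4 passed the test, and their groups did not overlap, as held for 48.6% of all regions in the FntbKO subset comparison and 29.7% in cTreg. The smallest adjusted p was 0.651 for the lactate carrier Slc16a3 (MCT4), 0.284 for the nucleoside carrier Slc29a1 (ENT1), 0.26 for the amino acid exchanger Slc7a6, and 0.143 for Slc20a1.

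No SLC region was called for the interaction of genotype and subset by edgeR, DESeq2 or limma, and 57 of 1263 had an unadjusted p under 0.05 in edgeR, against 3099 of 76216 over all regions. A subset difference called in 1 genotype alone, or a genotype difference called in 1 subset alone, is therefore not shown to differ from the other.

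Among the related ABC and Slco transporter genes the shares called between genotypes were above those of all regions (0.568% in cTreg and 0.35% in eTreg), on small counts. ABC transporters, which use ATP, had 162 tested regions, with 5 called in WT eTreg against WT cTreg (3 higher and 2 lower) and 2 lower (1.23%) in each genotype comparison. The organic anion transporters named Slco had 56, with 1 higher in the WT subset comparison, 3 lower (5.36%) in FntbKO cTreg and 1 lower (1.79%) in FntbKO eTreg. The 6 nutrient carriers outside the rule had 40, with 2 higher in WT eTreg (5%). In WT eTreg against WT cTreg 3.44% of all regions were called, against 3.09% for ABC and 1.79% for Slco genes.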

How the data were processed

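Nuclei were cut with a transposase and the DNA amplified, per the labels' protocols. The deposited values are raw read counts per region of 10 libraries, without normalization. Per the submitters' processing notes, the tools were MACS2 2.1.1, Picard 2.9.4, Trimmomatic 0.36, bedtools and SAMtools, and the builds named are GRCm38 and mm10. How reads were aligned and regions merged is not given in the sources used here. In each library 66.7% to 79.2% of the counts were even, so mates may have been counted separately, and totals overstate the independent reads. Coordinates are printed as deposited, with the numbering base not stated.

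Counts were scaled by TMM and fitted in edgeR 4.0.16 (R 4.3.3, quasi-likelihood, robust, filterByExpr, 1 mean per group, all 10 libraries, 6 residual degrees of freedom). The threshold for a call was 0.05 for the p adjusted by Benjamini-Hochberg across the 76216 regions tested, and every adjusted p in the text is of this kind. The SE of a log2 fold change is its absolute value over the square root of the test's F statistic. It is therefore unreliable where the change is near 0. CPM carry the SD over libraries. The fit was also run on simulated counts, and no result above rests on that run. DESeq2 1.42.0, limma 3.58.1 on cyclic loess values, other scalings, no filter, halved counts, a replicate block, narrower assignment and left-out libraries were tried.

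The members and lists were chosen with earlier results of these data known. Regions were named by rule: in each comparison the largest change per gene among called regions at or above the median level of 2.42 log2 CPM whose groups did not overlap, up to 10 in each direction, genes with 3 or more calls, 2 regions for each of 16 T cell carriers, all of Slc39a11, and the 3 smallest interaction p. Other called regions named were chosen after their values were seen. Gene spans and promoters are RefSeq's GRCm38.p6, the table's build. A few genes are not reported here. No genome was used, so sequences of the regions themselves are not shown.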

Additional observations from a re-analysis of the deposited data

How the results depend on the processing

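No change of a named region that passed the test turned its direction under any alternative tried, while changes that had not passed could. For FntbKO eTreg against FntbKO cTreg the 20 calls became 32 with halved counts, 0 to 42 without single libraries, and 1 without WT cTreg replicate 2 and FntbKO cTreg replicate 1 together. For WT eTreg against WT cTreg the 50 calls became 4 to 71 without single libraries, 78 without those 2 together, and 28 with only regions overlapping the gene span. For FntbKO cTreg against WT cTreg the 21 calls became 5 to 32 without single libraries, 4 without those 2 together, 5 with only regions overlapping the span and 7 within 10 kb of it. For FntbKO eTreg against WT eTreg the 13 calls became 3 to 16 without single libraries, 2 with only overlapping regions and 3 within 10 kb. Most of the genotype calls lay outside the gene span, 16 of 21 in cTreg and 11 of 13 in eTreg. Slc39a11 had 4 calls in cTreg and 11 in eTreg without those 2 libraries together. Whether same-numbered libraries came from the same mice is not given, and the main fit did not pair them. In deviations from the group means, same-numbered WT eTreg and cTreg libraries correlated at 0.165, 0.0833 and 0.0317. Differently numbered WT eTreg and cTreg libraries correlated at −0.130 to 0.0439, and the same-numbered FntbKO pairs at 0.180. With the replicate block the calls were 43, 75, 37 and 22 in the order above, and those for the interaction remained 0. DESeq2, limma, RLE or total count scaling and no filter kept all 4 counts within 1.5 times. Under DESeq2 66.7% of the 36 WT subset calls were higher, against 56% of the 50. Depth limits the regions under about 1 CPM, where a group can hold 3 counts or fewer.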
